A study of Rattus norvegicus with 15 samples.

Results

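The genes described here are 10 genes known from endothelial and vascular work to respond to a change in flow: Egr1, Fos, Jun, Junb, Jund, Atf3, Klf2, Klf4, Nr4a1 and Dusp1. They were taken by gene symbol from the platform annotation of the array. All 10 were represented, by 19 of the 15923 probe sets on the array, and 18 of these entered the tests among 15737 tested probe sets that name 10360 genes. All but Dusp1 encode transcription factors. Dusp1 encodes a phosphatase that switches off mitogen-activated protein kinases and is itself an early response gene.

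The samples were posterior cerebral arteries of Sprague Dawley rats, taken from the ipsilateral side. In the 3-vessel occlusion (3VO) both vertebral arteries were electrocoagulated and the left common carotid artery was ligated, a model of low brain perfusion in which the posterior cerebral artery enlarges as a collateral. The 5 groups of 3 arrays each were 3VO at 24 h, sham at 24 h, 3VO at 3 d, sham at 3 d, and intact animals, for which no surgery or anaesthesia is described. All animals were 7 weeks old. Every group was perfused with latex under papaverine, a vasodilator, before the artery was dissected, and the operated groups also had isoflurane and buprenorphine. RNA of 8 animals was pooled for each array. The design text speaks of repeated hybridisation, so p-values measure the spread between these arrays, which may be technical.

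Immediate early genes are switched on by signals that reach existing transcription factors, so that their transcripts appear within minutes and are short-lived. Fluid shear stress on the endothelium acts through mitogen-activated protein kinases, serum response factor and its partners to induce Egr1, Fos and Jun, while sustained laminar flow acts through the MEK5 and ERK5 kinases and MEF2 factors to raise Klf2 and Klf4. Fos and the Jun proteins pair with each other and with ATF proteins to form AP-1, and Klf2 and Klf4 maintain the anti-inflammatory, anticoagulant state of endothelial cells under flow. The earliest time sampled after surgery was 24 h, so the first wave of induction was not covered.

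The promoter windows were searched for short motifs, among them that of serum response factor. RefSeq windows of the GRCr8 assembly, from 250 bases before to 50 bases after the gene start, were matched for 6 of the 10 genes (Egr1, Junb, Jund, Klf4, Nr4a1 and Dusp1), and Fos, Jun, Atf3 and Klf2 are named only. The 5 windows printed belong to Egr1, whose window holds the serum response factor motif, to Jund, which differed between operated and intact arteries, and to Junb, Nr4a1 and Dusp1, which are compared across arrays. Capitals mark matches on either strand to the CArG box (the serum response factor motif), to TGACG (the core of the cyclic AMP response element) and to TATAAA.
Egr1, chr18:26736828-26737127, plus strand: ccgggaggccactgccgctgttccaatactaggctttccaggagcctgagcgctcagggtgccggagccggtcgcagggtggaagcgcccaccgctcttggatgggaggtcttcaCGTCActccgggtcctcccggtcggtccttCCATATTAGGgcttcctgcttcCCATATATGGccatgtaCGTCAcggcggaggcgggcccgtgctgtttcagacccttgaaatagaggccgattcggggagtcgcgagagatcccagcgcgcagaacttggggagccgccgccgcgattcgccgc
Junb, chr19:40080876-40081175, plus strand: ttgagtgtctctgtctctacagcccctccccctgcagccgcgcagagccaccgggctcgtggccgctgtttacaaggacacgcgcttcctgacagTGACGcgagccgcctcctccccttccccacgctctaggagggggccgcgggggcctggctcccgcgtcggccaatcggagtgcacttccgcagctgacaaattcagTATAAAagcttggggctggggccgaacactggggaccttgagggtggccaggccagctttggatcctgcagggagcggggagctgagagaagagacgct
Jund, chr16:18769722-18770021, minus strand: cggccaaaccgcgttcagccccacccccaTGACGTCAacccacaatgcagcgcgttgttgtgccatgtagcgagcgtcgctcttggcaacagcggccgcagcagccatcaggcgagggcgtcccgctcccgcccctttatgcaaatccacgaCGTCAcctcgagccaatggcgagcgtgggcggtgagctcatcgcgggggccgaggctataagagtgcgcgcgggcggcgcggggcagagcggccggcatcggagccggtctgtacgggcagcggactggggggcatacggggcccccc
Nr4a1, chr7:134259888-134260187, plus strand: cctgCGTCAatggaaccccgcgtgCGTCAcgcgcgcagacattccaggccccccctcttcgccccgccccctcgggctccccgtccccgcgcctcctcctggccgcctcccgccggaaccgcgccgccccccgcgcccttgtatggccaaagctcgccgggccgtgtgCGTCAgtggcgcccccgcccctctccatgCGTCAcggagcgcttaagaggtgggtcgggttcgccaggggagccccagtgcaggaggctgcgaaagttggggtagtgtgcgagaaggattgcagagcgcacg
Dusp1, chr10:17184603-17184902, plus strand: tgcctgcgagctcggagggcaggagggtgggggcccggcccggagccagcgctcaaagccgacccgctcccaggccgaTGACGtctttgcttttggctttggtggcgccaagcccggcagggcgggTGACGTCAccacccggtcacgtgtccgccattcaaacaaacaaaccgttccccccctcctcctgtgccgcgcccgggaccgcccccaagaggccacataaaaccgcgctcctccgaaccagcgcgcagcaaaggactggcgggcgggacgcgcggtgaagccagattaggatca

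Among the 6 windows the CArG box occurred in Egr1 alone, with 2 matches that start 105 and 83 bases before the gene start, and 1.64% of all 33469 promoter windows in the RefSeq table held it. TGACG occurred in 5 of the 6 windows, Klf4 being the one without it, against 21.2% of all windows. Nr4a1 held 4 such matches, Jund and Dusp1 held 3 each, Egr1 held 2 and Junb held 1. The whole palindrome TGACGTCA, which contains TGACG on both strands, occurred in Jund and Dusp1 (1.83% of all windows). TATAAA was found in Junb and Klf4 (14.2% of all windows), and the EGR motif GCGNGGGCG in Jund and Nr4a1 (4.98% of all windows). CACCC, the core that KLF proteins bind, was in 4 of the 6 windows and in 54.9% of all windows, while the AP-1 motif TGANTCA was in none of the 6 and in 7.33% of all windows. These are letter matches in a short window and not measured binding.

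All values are the deposited linear signals, which have no unit beyond the array's own brightness, and the signals of different probe sets cannot be set against each other. The trimmed mean of every array was 5000, against a stated target of 500, so signals far below that mean are dim here. Tests were run on log2(signal + 16) with limma over all tested probe sets, and a call means a Benjamini-Hochberg adjusted p under 0.05. The smooth muscle genes Acta2, Myh11 and Tagln reached the 98.5th to 99.5th percentile of all tested probe sets. The endothelial gene Vwf reached the 95.7th and Pecam1, also endothelial, the 47.5th. These ranks describe brightness and do not measure how much of each tissue was present. Other tissue came along unevenly. Ttr, the main secretory product of choroid plexus, was at the 99.3rd percentile and ranged from 9354 to 282179. The choroid plexus list was highest on intact replicate 2 and sham 3 d replicate 3. In addition, the treatment text of sham 3 d replicate 1 describes the occlusion although its title, source and description say sham, so the results on 3 d and on all operated arteries that turn on it are also given without it.

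**Figure D1:**
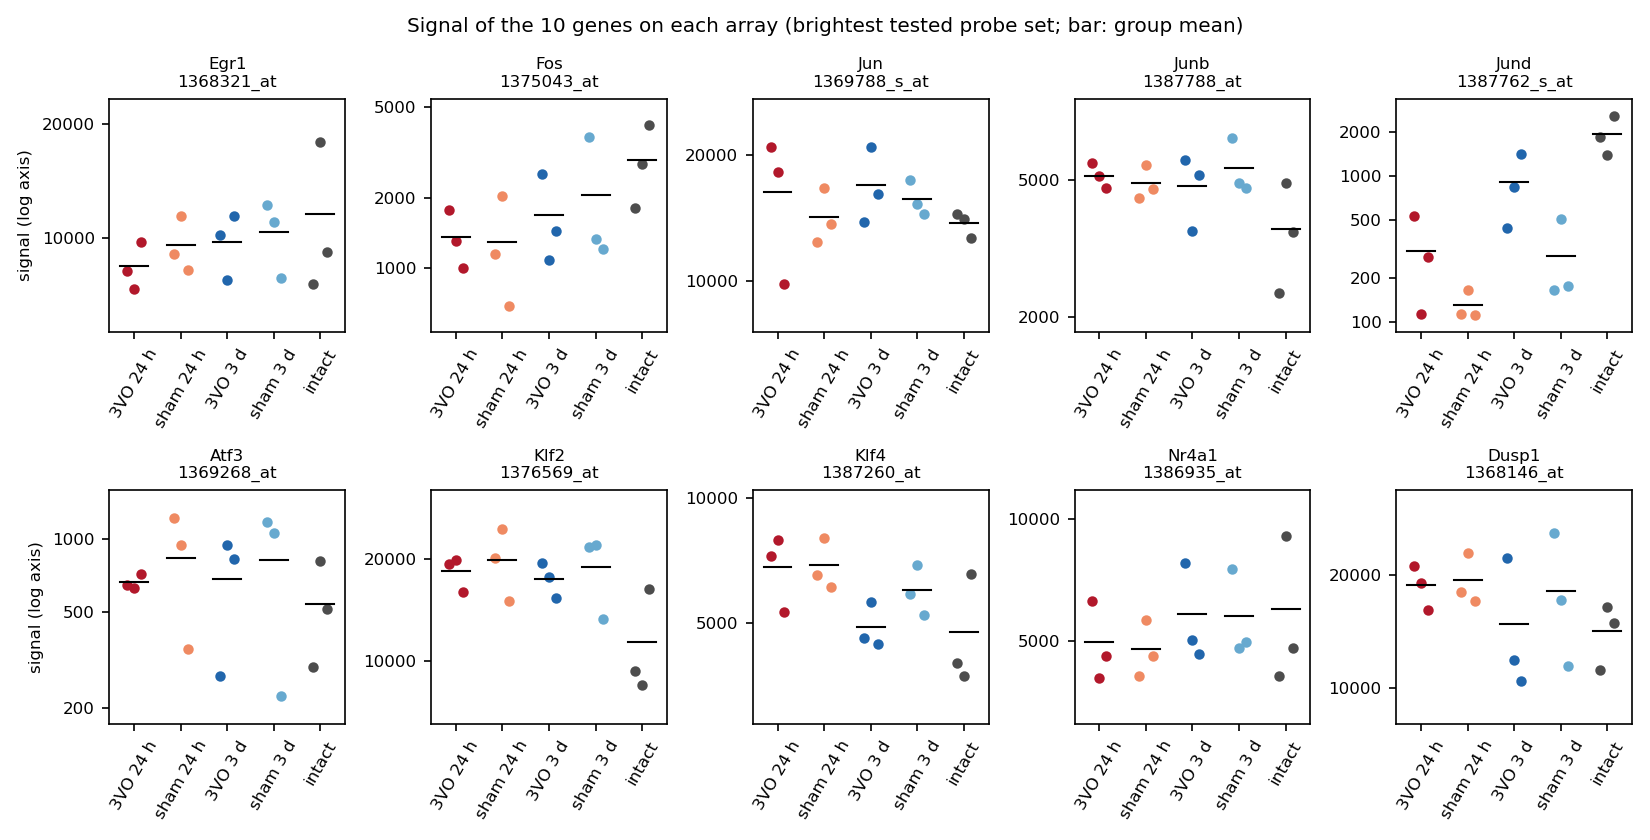
Signal of the 10 genes on each of the 15 arrays, 1 panel per gene with its brightest tested probe set, signal on a log axis and groups along the horizontal axis; points are arrays (n = 3 per group) and bars are group means. Intact replicates 1 and 2 lie below all operated arrays in Klf2 and Klf4, as do intact replicates 1 and 3 in Junb. In Jund the intact arrays lie above all operated arrays except 1 of 3VO at 3 d, which overlaps their range. The 3VO and sham arrays of the same time overlap in every panel.

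The first question was whether the occlusion itself changed these genes beyond the sham operation. None of the 18 probe sets passed at 24 h or at 3 d in limma. At 24 h, 8 probe sets of the whole array passed (0.0508%), and none of the 18 had an unadjusted p under 0.05, against 6.97% of all probe sets. At 3 d no probe set of the array passed (0.0%), and 1 of the 18 had an unadjusted p under 0.05, against 4.73% of all. The median log2 difference over the 10 genes was 0.01 at 24 h, where 5 were higher and 5 lower, and -0.11 at 3 d, where 3 were higher and 7 lower. Over all 10360 genes the medians were -0.01 and -0.00478. Without sham 3 d replicate 1 the median at 3 d turned to 0.11, with 7 genes higher and 3 lower, and no probe set passed or had an unadjusted p under 0.05 among the 18. In that fit the log2 differences at 3 d were 0.06 for Egr1, 0.32 for Fos, 0.17 for Jun, -0.02 for Junb, 0.27 for Atf3, 0.02 for Klf2, -0.30 for Klf4, 0.21 for Nr4a1 and -0.00339 for Dusp1, so that the sign of Egr1, Fos, Atf3 and Klf2 turned.

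Egr1 (1368321_at), a zinc finger factor that drives growth factor and protease genes in injured vessels, had signals of 8207, 7368 and 9767 in 3VO arteries at 24 h, against 9071, 11441 and 8247 in sham arteries. At 3 d it had 10203, 7749 and 11472 in 3VO arteries, against 12218, 11023 and 7862 in sham arteries. The groups overlapped at both times. The log2 difference was -0.18 (95% interval -0.75 to 0.40; adjusted p = 0.939, limma) at 24 h and -0.07 (-0.65 to 0.50; adjusted p = 0.999) at 3 d. Both intervals lie within 1 log2 unit of 0.

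Fos, the AP-1 partner that needs a Jun protein to bind DNA, was measured by a pair of probe sets that did not follow each other (Pearson r 0.18 over 15 arrays). The brighter, 1375043_at, had 1772, 1302 and 993 in 3VO arteries at 24 h, against 1144, 2037 and 682 in sham arteries, and 2538, 1079.8 and 1446 in 3VO arteries at 3 d, against 3675, 1325 and 1209 in sham arteries. The 3VO and sham arrays overlapped at each time. The dimmer, 1371283_at, had 669.9, 230.0 and 1081 in 3VO arteries at 24 h, against 255, 295 and 311 in sham arteries, with a log2 difference of 0.92 (interval -0.42 to 2.25; adjusted p = 0.825). At 3 d it had 851, 1887 and 781 in 3VO arteries, against 2346, 1583 and 1041 in sham arteries, and again the groups overlapped. The wide interval shows how poorly this dim probe set resolved a change.

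Jun, the central AP-1 subunit, had overlapping 3VO and sham arrays in all 3 of its probe sets. The brightest, 1369788_s_at, had 20853, 18208 and 9836 in 3VO arteries at 24 h, against 12391, 16712 and 13660.2 in sham arteries, and 13837, 20913 and 16148 in 3VO arteries at 3 d, against 17384, 15278 and 14498 in sham arteries. The log2 differences were 0.13 (SE 0.23) and 0.09 (SE 0.23), and those of the other probe sets lay between -0.23 and 0.23. Junb (1387788_at), an AP-1 subunit that often restrains Jun, had 5601, 5119.9 and 4733 in 3VO arteries at 24 h, against 4442, 5515 and 4700.0 in sham arteries. At 3 d Junb had 5705, 3568 and 5180.0 in 3VO arteries, against 6603, 4890.1 and 4725 in sham arteries. Its log2 differences of 0.08 and -0.18 (SE 0.24 each) were smaller than their errors.

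Jund, the Jun protein that most cells make constitutively, gave the only unadjusted p under 0.05. Its brighter probe set, 1387762_s_at, had 442, 839 and 1414 in 3VO arteries at 3 d, against 165, 503 and 176 in sham arteries, so that 1 sham array lay inside the 3VO range. The log2 difference was 1.65 (SE 0.59; unadjusted p = 0.0137; adjusted p = 0.969, limma), and 1.38 without sham 3 d replicate 1 (unadjusted p = 0.0544). At 24 h the same probe set had 531, 114 and 278 in 3VO arteries, against 114, 165 and 111 in sham arteries. The other Jund probe set, 1375768_at, pointed the other way at 3 d, with 119, 129 and 97 in 3VO arteries against 837, 106 and 284 in sham arteries (log2 difference -1.27, SE 0.77, adjusted p = 0.999). Both probe sets are dim, they correlated at -0.30 over the 15 arrays, and the difference at 3 d therefore rests on 1 probe set.

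Atf3 (1369268_at), a stress-induced repressor of the ATF family, was dim and scattered, with 642, 625 and 718 in 3VO arteries at 24 h against 1217, 938 and 349 in sham arteries. At 3 d it had 269.9, 942 and 828 in 3VO arteries against 1168, 1059.8 and 224 in sham arteries. The SE of its log2 difference was 0.66 at each time, so changes of this gene were poorly resolved.

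Klf2, the zinc finger factor most closely tied to laminar flow, did not separate 3VO from sham in any of its 4 tested probe sets. The brightest, 1376569_at, had 19307, 19765 and 15987 in 3VO arteries at 24 h, against 20106, 24442 and 15067 in sham arteries, and 19465, 17642 and 15314 in 3VO arteries at 3 d, against 21594, 21996 and 13289.5 in sham arteries. Its log2 difference was -0.09 at both times, with intervals of -0.62 to 0.44. Klf4 (1387260_at), its close relative in endothelium, had 7244, 7912 and 5308 in 3VO arteries at 24 h, against 6516, 8003 and 6109.7 in sham arteries, and 4599, 5619.8 and 4448 in 3VO arteries at 3 d, against 5882, 6892 and 5242 in sham arteries. The difference was -0.02 at 24 h and -0.29 (SE 0.22, adjusted p = 0.999) at 3 d, where 1 of the 3VO arrays lay within the sham range. Arteries hold several cell types, and fewer endothelial cells and less RNA per cell cannot be told apart in such pools. In 3VO over sham, endothelial markers were lower in 13 of 14 genes at 24 h (median log2 difference -0.30), with none passing. At 3 d they were also lower in 13 of 14 (median -0.22), and contractile smooth muscle markers in 18 of 18 (median -0.37), with none passing. The part of these cells in the Klf2 and Klf4 values was not tested.

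Nr4a1 (1386935_at), an orphan nuclear receptor induced by growth factors and stretch, had 6275, 4044 and 4584 in 3VO arteries at 24 h against 4073, 5619 and 4580.0 in sham arteries. At 3 d it had 7776, 5013 and 4629 in 3VO arteries against 7514, 4790.1 and 4962 in sham arteries. The log2 differences were 0.05 and 0.00495 (SE 0.29 each), and the groups covered almost the same range. Dusp1 (1368146_at) had 21188, 19097 and 16166 in 3VO arteries at 24 h against 18064, 22978 and 17140.4 in sham arteries, and 22229.6, 11928 and 10459 in 3VO arteries at 3 d against 25954, 17252 and 11497 in sham arteries. The groups overlapped at both times, with log2 differences of -0.04 and -0.30 (SE 0.29 each). In both groups at 3 d replicate 1 was the highest array. The other Dusp1 probe set, 1368147_at, differed by 0.19 at 24 h and -0.02 at 3 d (SE 0.27 each). The pair of probe sets correlated at only 0.36 over the 15 arrays.

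**Figure D2:**
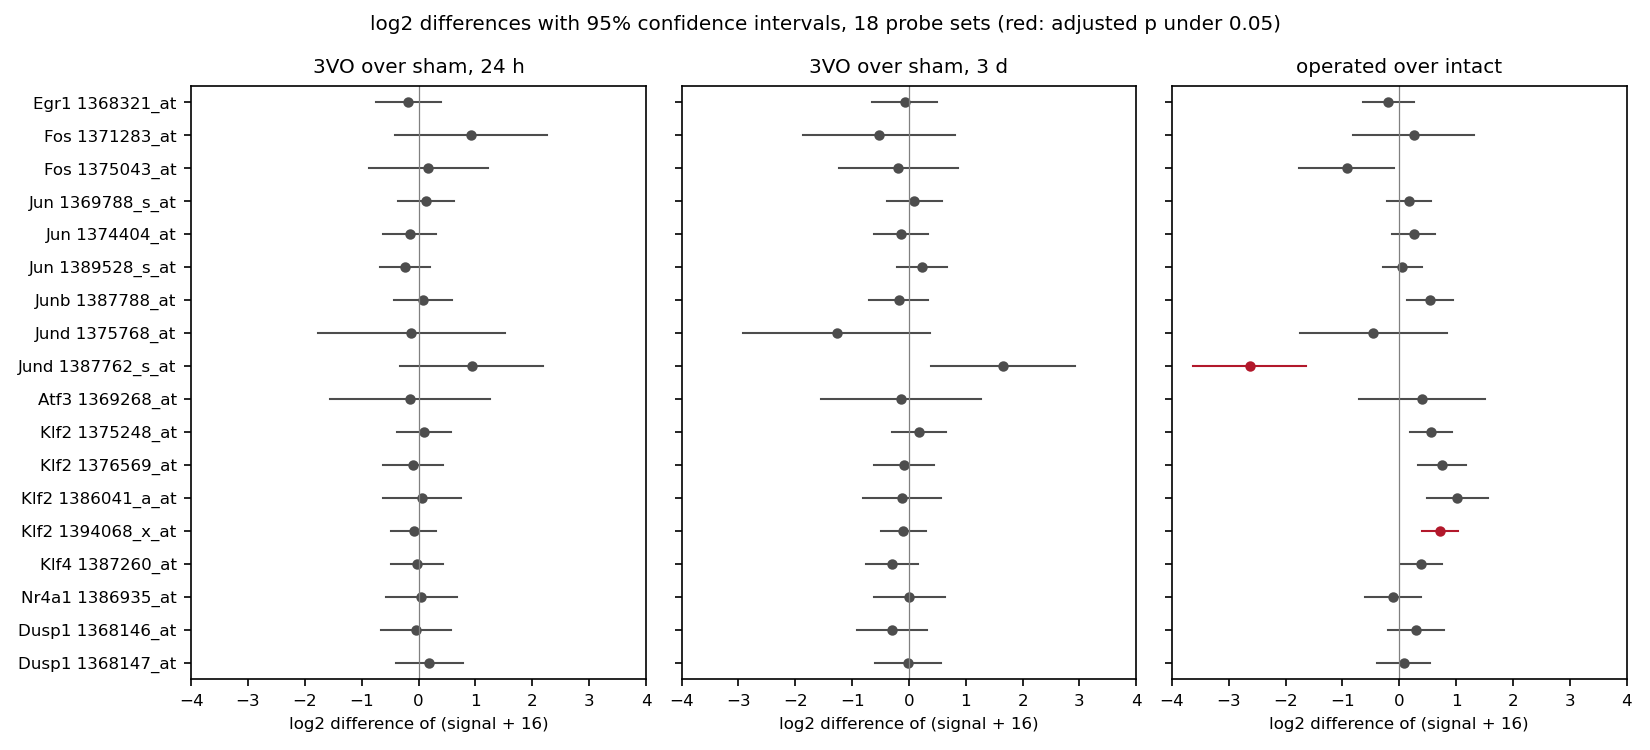
log2 differences of signal + 16 for the 18 tested probe sets (rows) in 3VO over sham at 24 h, 3VO over sham at 3 d, and the 4 operated groups over intact; points are limma estimates, lines are 95% confidence intervals, and red marks an adjusted p under 0.05. Red appears for 1 Jund and 1 Klf2 probe set in operated over intact, and all intervals of 3VO over sham at 24 h cross 0.

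The effect of the occlusion was also compared between the times, as the difference at 3 d minus the difference at 24 h. None of the 18 probe sets passed, none had an unadjusted p under 0.05, and over the whole array 0.0% passed and 2.78% had an unadjusted p under 0.05. The estimates for the brightest probe sets ran from -0.36 for Fos to 0.72 for Jund, with a median of -0.04 (4 higher, 6 lower). Without sham 3 d replicate 1 the median turned to 0.13 (8 higher, 2 lower), and again none of the 18 passed. In that fit Fos turned to 0.15 and Dusp1 from -0.26 to 0.04. The estimates then ran from -0.28 for Klf4 to 0.45 for Jund. Between times within one operation no probe set of the array passed either (0.0% for 3VO at 3 d over 24 h and 0.0% for sham at 3 d over 24 h). In 3VO arteries 2 of the 18 probe sets had an unadjusted p under 0.05, against 5.76% of all. These were Klf4 with a log2 difference of -0.47 (SE 0.22, unadjusted p = 0.0471, limma) and Jund 1387762_s_at with 1.58 (SE 0.59, unadjusted p = 0.0175, limma). The other Jund probe set, 1375768_at, pointed the other way, with a log2 difference of -0.81 (SE 0.77). It had 119, 129 and 97 at 3 d, all below the 141, 370 and 179 at 24 h. In sham arteries 1 of the 18 had an unadjusted p under 0.05, against 5.65% of all. This was the dimmer Fos probe set 1371283_at, with 2346, 1583 and 1041 at 3 d against 255, 295 and 311 at 24 h, and the groups did not overlap. Its log2 difference was 2.39 (SE 0.63; unadjusted p = 0.00171; adjusted p = 0.815, limma), and 2.11 without sham 3 d replicate 1 (adjusted p = 0.666). The brighter Fos probe set overlapped between the same groups, so the pair do not give a common picture of Fos.

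The second question was whether operated arteries differed from those of intact animals. With the mean of the 4 operated groups set over intact, 68 probe sets of the array passed (0.432%), and among the 18 there were 2: Jund 1387762_s_at, which fell, and Klf2 1394068_x_at, which rose. An unadjusted p under 0.05 was reached by 8 of the 18 (Fos, Junb, Jund, Klf4 and all 4 of Klf2), against 16.8% of all probe sets. Operated and intact arrays did not overlap in 1 of the 18, the same Klf2 probe set, against 1.65% of all. The median log2 difference over the 10 genes was 0.23, with 6 higher and 4 lower, against 0.04 over all genes, of which 55.1% were higher.

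Klf2 was higher in operated arteries in every one of its tested probe sets. Probe set 1394068_x_at had 4827, 4697 and 3725 in 3VO arteries at 24 h, 4409, 5095 and 4528 in sham arteries at 24 h, 5128, 3988 and 3981 in 3VO arteries at 3 d, and 5187, 4558 and 4204 in sham arteries at 3 d, against 2096, 3194 and 3034 in intact arteries. All 12 operated arrays lay above all 3 intact arrays. The log2 difference was 0.72 (SE 0.15; 95% interval 0.41 to 1.03; fold 1.65; adjusted p = 0.0495, limma).

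The brightest Klf2 probe set, 1376569_at, averaged 18664 ± 3285 in operated arteries (SD, n = 12) against 11372 ± 4256 in intact arteries (SD, n = 3). Its intact arrays had 9343, 8510.4 and 16263, and the third of these lay inside the operated range of 13289.5 to 24442. The log2 difference was 0.75 (SE 0.20, adjusted p = 0.0946). Probe set 1386041_a_at ranged from 3371 to 7590.5 in operated arteries, against 2152, 1864 and 4446 in intact arteries. Its log2 difference was 1.02 (SE 0.25, adjusted p = 0.0876), and that of 1375248_at was 0.56 (SE 0.18, adjusted p = 0.139). The 4 probe sets followed each other over the arrays, with Pearson r between 0.73 and 0.98, and a suffix of x marks probes that can also bind other transcripts. The remaining Klf2 probe set, 1386040_at, was at 69 to 316 on all arrays, reached the minimum of 100 on 2 of them and was not tested.

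Jund 1387762_s_at ranged from 111 to 1414 in operated arteries (404 ± 390, SD, n = 12), against 1833, 1388 and 2571 in intact arteries (1931 ± 598, SD, n = 3). A single array, of 3VO at 3 d, overlapped the intact range. The log2 difference was -2.63 (SE 0.47; 95% interval -3.63 to -1.64; adjusted p = 0.0345, limma). Set against intact one by one, the differences were -2.78 for 3VO at 24 h, -3.71 for sham at 24 h, -1.19 for 3VO at 3 d and -2.85 for sham at 3 d. The operated arrays lay mostly near the dim end of the table, where the size of a fold depends on the added 16: it was -2.72 with 1 and -2.41 with 64 in its place. The dimmer Jund probe set differed by -0.46 (SE 0.61, adjusted p = 0.759) and its groups overlapped.

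**Figure D3:**
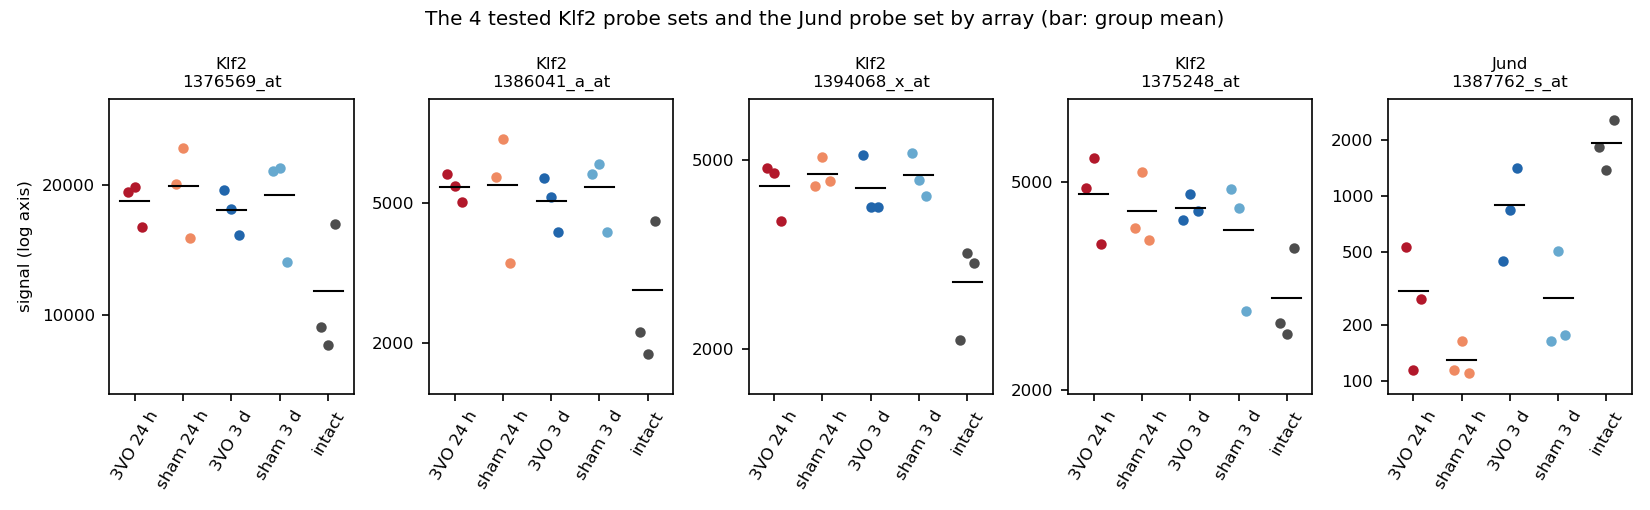
Signal on a log axis of the 4 tested Klf2 probe sets and of Jund 1387762_s_at on each of the 15 arrays; points are arrays (n = 3 per group) and bars are group means. The 12 operated arrays lie above the 3 intact arrays in Klf2 1394068_x_at, intact replicate 3 lies among the operated arrays in Klf2 1376569_at, and Jund is lowest in sham arteries at 24 h.

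Klf4 and Junb had smaller differences that did not pass. Klf4 averaged 6148 ± 1191 in operated arteries against 4774 ± 1557 in intact arteries (SD, n = 12 and n = 3), a log2 difference of 0.39 (SE 0.17, adjusted p = 0.269), with intact arrays at 4019, 3738 and 6565. Junb averaged 5065 ± 757 in operated arteries against 3599.6 ± 1270 in intact arteries, with intact arrays at 2358, 4896 and 3544 and a log2 difference of 0.54 (SE 0.19, adjusted p = 0.180). In Klf4 intact replicate 3, and in Junb intact replicate 2, lay within the operated range. Fos 1375043_at averaged 1600.0 ± 822 in operated arteries against 2926 ± 1172 in intact arteries, a log2 difference of -0.93 (SE 0.39, adjusted p = 0.247), while its other probe set had 0.25 (SE 0.50).

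Egr1, Jun, Atf3, Nr4a1 and Dusp1 had no unadjusted p under 0.05 in any probe set of this comparison. Egr1 averaged 9552 ± 1695 in operated arteries against 11557 ± 5544 in intact arteries, because intact replicate 2 had 17893 and the other intact arrays had 7596 and 9181. The same array had the highest Nr4a1 signal of all, 9078, while the other intact arrays had 4084 and 4793. Dusp1 1368146_at averaged 17829 ± 4840 in operated arteries against 14206 ± 2724 in intact arteries, with a log2 difference of 0.29 (SE 0.23, adjusted p = 0.557, limma). The other Dusp1 probe set, 1368147_at, differed by 0.08 (SE 0.22). Atf3 differed by 0.40 (SE 0.52) and the brightest Jun probe set by 0.17 (SE 0.18).

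Group by group, none of the 18 probe sets passed against intact in limma. Over the whole array 0.184% passed for 3VO at 24 h, 0.222% for 3VO at 3 d, 0.0% for sham at 24 h and 0.0% for sham at 3 d. An unadjusted p under 0.05 was reached by 8 of the 18 for 3VO at 24 h (9.96% of all) and by 4 for 3VO at 3 d (12.9% of all). It was reached by 7 for sham at 24 h (2364 of all 15737) and by 6 for sham at 3 d (14.2% of all), or 5 without sham 3 d replicate 1. Klf2 1394068_x_at reached it in all 4 groups, with log2 differences of 0.68, 0.66, 0.77 and 0.76 in that order. The probe sets named 5 genes for 3VO at 24 h and 4 for each sham group, but Klf2 alone for 3VO at 3 d. The tested Klf2 probe sets followed each other, so these counts are not of separate genes. The mean signal of Klf2 1376569_at ordered the groups as sham at 24 h (19871), sham at 3 d (18960), 3VO at 24 h (18353), 3VO at 3 d (17474) and intact (11372). The step between 3VO at 3 d and intact had an adjusted p of 0.283 (unadjusted 0.0161, limma), and the 4 operated groups overlapped one another. An F test over the 5 groups called none of the 18 and 0.0763% of all probe sets. Its unadjusted p was under 0.05 for 5 of the 18, in Fos, Jund and Klf2, against 12.1% of all. Its smallest adjusted p was 0.0797, for Jund.

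Neither call held in every fit that left out 1 array. The log2 differences in those fits ran from -2.85 to -2.40 for Jund 1387762_s_at and from 0.53 to 0.83 for Klf2 1394068_x_at. Leaving out each of the 15 arrays in turn gave no call in 9 fits, 1 gene in 3, 2 genes in 2, and 3 genes (Jund, Klf2 and Klf4) in the fit without intact replicate 3. Without sham 3 d replicate 1, whose texts conflict, the log2 difference was -2.57 for Jund (adjusted p = 0.0513) and 0.70 for Klf2 1394068_x_at (adjusted p = 0.0742). Intact replicate 3 lay nearest the operated arrays in Klf2 1376569_at and in Klf4, whereas in Klf2 1394068_x_at intact replicate 2 did, at 3194 against 3034 in replicate 3. Without intact replicate 3, 927 probe sets passed in place of 68. In that fit Klf2 1376569_at differed by 1.04 (adjusted p = 0.0126) and Klf4 by 0.64 (adjusted p = 0.0367). The intact arrays carry the last 3 array numbers, so array number and operation cannot be told apart fully, and with the array number in the model neither gene passed (Klf2 1394068_x_at 0.45, adjusted p = 0.477; Jund -2.21, adjusted p = 0.355).

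Markers of several cell types moved with the same comparison. Macrophage markers were higher in operated arteries in 14 of 14 genes, with a median log2 difference of 0.50, 12 at an unadjusted p under 0.05 and 1 passing, and their array means ran from -0.31 to 0.83 on operated and from -0.78 to -0.14 on intact arrays. Markers of leptomeningeal fibroblasts were higher in 10 of 11 genes (median 0.46, 6 at an unadjusted p under 0.05, 1 passing), with array means of -0.26 to 0.40 on operated and -0.58 to 0.07 on intact arrays. The endothelial list was higher in operated arteries in 14 of 14 measured genes, with a median log2 difference of 0.42 and none passing (6 at an unadjusted p under 0.05). Its mean per array, relative to the mean of all arrays, ran from -0.40 to 0.41 on operated arrays and stood at -0.81, -0.56 and 0.09 on the 3 intact arrays, and none of its genes was at 0. Neuron markers were lower in 20 of 20 genes (median -0.80, none passing), with array means of -1.01 to 0.67 on operated and -0.09 to 1.25 on intact arrays. Choroid plexus markers were lower in 9 of 9 genes (median -1.57, none passing), with array means of -1.30 to 3.22 on operated and -0.49 to 3.24 on intact arrays. With the endothelial mean as a covariate Klf2 1394068_x_at differed by 0.58 (adjusted p = 0.353), Klf2 1376569_at by 0.46 in place of 0.75, and Jund by -2.29 (adjusted p = 0.269). With the neuron mean the values were 0.69, 0.64 and -2.33, and with the choroid plexus mean 0.74, 0.53 and -2.74, in the same order and with no call. Beyond these covariate fits, the part of these cells in the differences was not tested.

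Across the 15 arrays, Klf2 and the endothelial list had a Pearson r of 0.72 (permutation p = 0.00257; adjusted over 30 gene and list pairs, 0.0677) and a Spearman rho of 0.62 (adjusted p = 0.110, permutation). The value was 0.34 without the 2 arrays farthest from the median of the list and 0.53 within groups (permutation p = 0.0778), so the relation rested in part on intact replicates 1 and 2. None of the 30 such relations passed after adjustment.

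**Figure D4:**
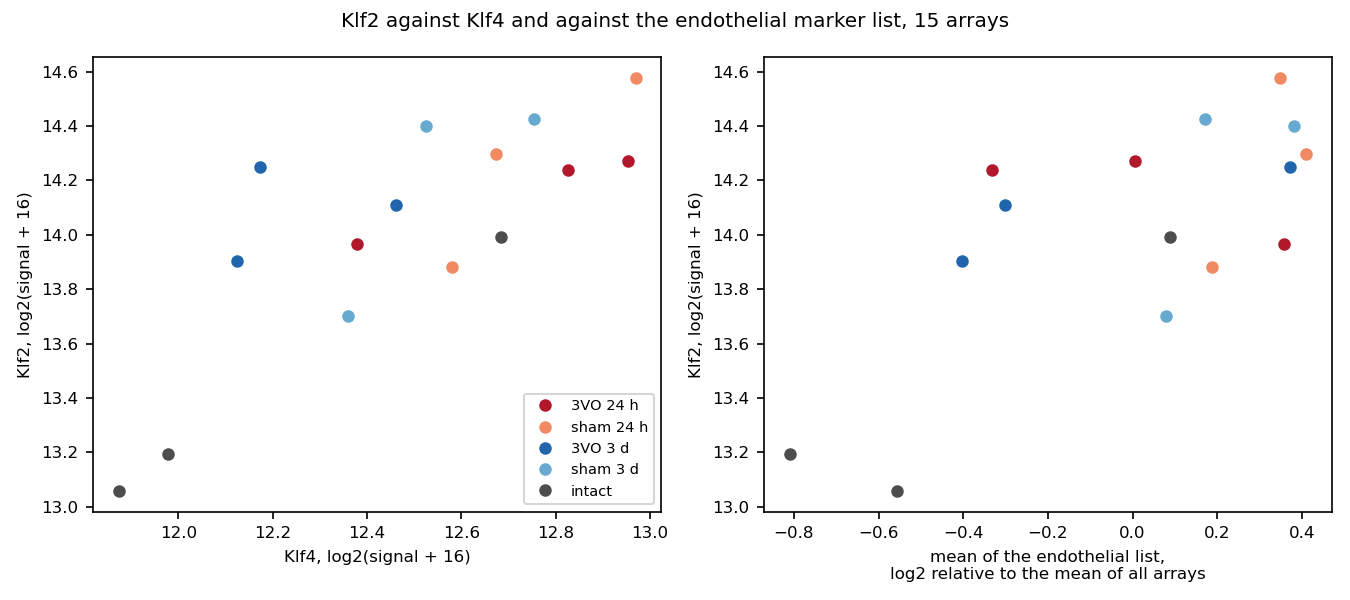
Klf2 (1376569_at, log2 of signal + 16, vertical axes) against Klf4 (1387260_at, log2 of signal + 16, left) and against the mean of the endothelial list (log2, relative to the mean of all arrays, right); each point is 1 of 15 arrays, coloured by group. Intact replicates 1 and 2 lie lowest in Klf2, and intact replicate 3 lies among the operated arrays.

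The 10 genes were also compared with each other, as 45 pairs of brightest probe sets over the 15 arrays, by permutation with 100000 resamples. Of these pairs 33 had a positive Pearson r, and the median r was 0.21. Pairs with Fos, Jun, Jund or Dusp1 rest on 1 probe set that the gene's other probe sets followed weakly or not (r of -0.30 to 0.36). Klf2 and Klf4 were the single pair that passed by Pearson r, with r = 0.80 (permutation p = 0.00029, adjusted 0.0131). They had rho = 0.74 (adjusted permutation p = 0.0423) and r = 0.58 without the 2 arrays farthest from the median of Klf2. By rho, Klf2 and Dusp1 passed as well (0.75, adjusted permutation p = 0.0423). Their r was 0.60 (adjusted permutation p = 0.158), and 0.76 without the same 2 arrays. For Klf2 and Klf4 more was examined. The deviations of Klf2 and Klf4 from the group means had r = 0.84 (permutation p = 0.00245, adjusted 0.0367). Their call by Pearson r was lost without intact replicate 1 (r = 0.75, adjusted permutation p = 0.0729) and without intact replicate 2 (r = 0.72, adjusted permutation p = 0.0613).

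Within groups, 3 of the 45 pairs passed. Beside Klf2 and Klf4 these were Nr4a1 and Dusp1, with r = 0.76, and Fos and Dusp1, with r = 0.82 (adjusted permutation p = 0.0367 each). Over all arrays, group differences included, the same pairs had r = 0.48 and r = 0.33 and did not pass. Without sham 3 d replicate 1 none of the 45 pairs passed within groups: Klf2 and Klf4 had r = 0.88, Nr4a1 and Dusp1 0.71, and Fos and Dusp1 0.74 (adjusted permutation p = 0.110 each). Over all arrays Klf2 and Klf4 then had r = 0.82 (adjusted permutation p = 0.0122). Junb followed Nr4a1 (within groups r = 0.82, adjusted permutation p = 0.114), Egr1 (0.81, adjusted 0.133) and Dusp1 (0.69, adjusted 0.152) without passing. Egr1 and Nr4a1 had r = 0.70 over all arrays and 0.32 without the 2 arrays farthest from the median of Egr1.

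**Figure D5:**
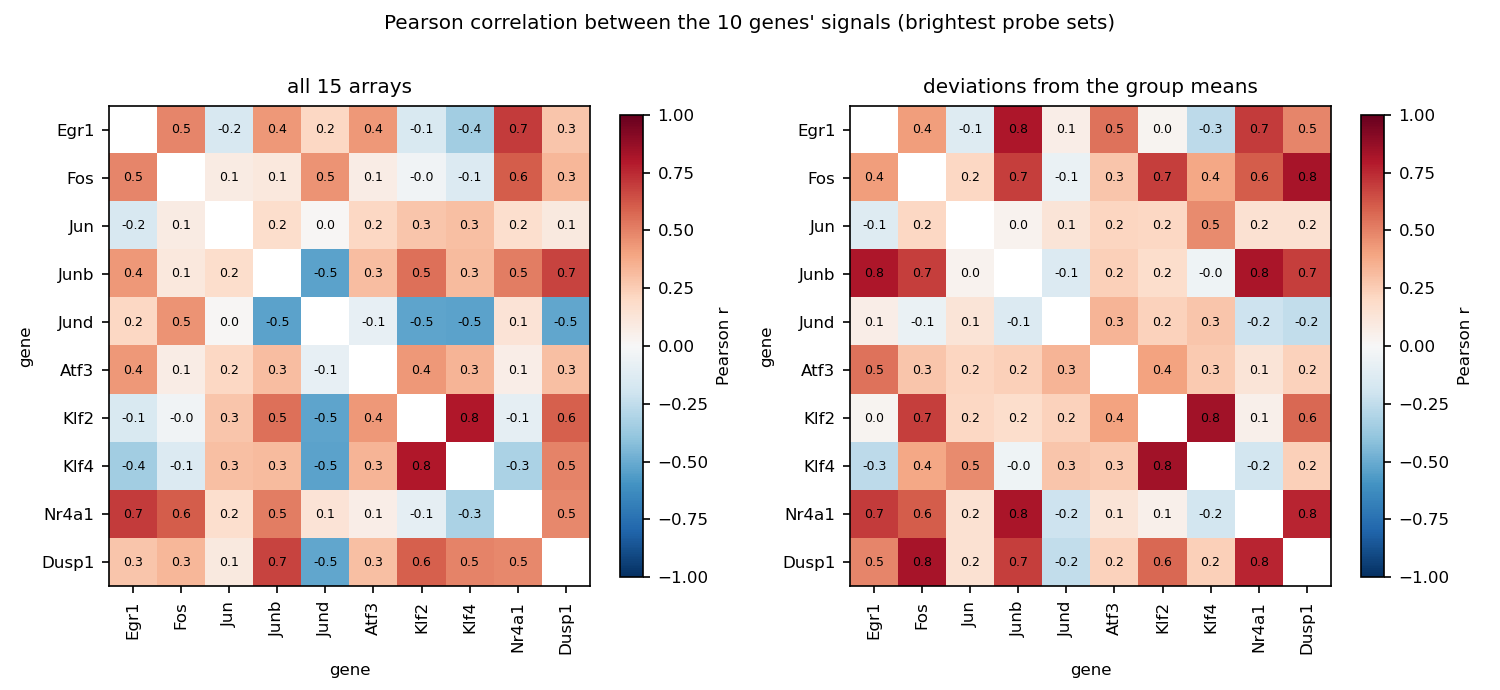
Pearson r between the log2 signals of the 10 genes (rows and columns, brightest probe sets), over all 15 arrays on the left and as deviations from the group means on the right; red is positive and blue negative. Klf2 with Klf4 stands at 0.80 on the left and 0.84 on the right, and Fos with Dusp1 at 0.33 on the left and 0.82 on the right.

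In 9 lists of related pathway genes, no gene passed for 3VO against sham at 24 h or at 3 d. Nr4a3, the Nr4a1 relative that is induced by the same signals, averaged 3077 in 3VO arteries at 24 h against 1027 in sham arteries, with a log2 difference of 1.86 (SE 0.49; unadjusted p = 0.00175; adjusted p = 0.341). Over intact arteries, which averaged 2418, Nr4a3 differed by 0.35 in 3VO arteries (adjusted p = 0.860) and by -1.51 in sham arteries (adjusted p = 0.183) at 24 h. In 3VO over sham at 24 h neuron markers were higher in 20 of 20 genes (median 0.96, 9 at an unadjusted p under 0.05) and contractile smooth muscle markers lower in 18 of 18 (median -0.62, 11 at an unadjusted p under 0.05), none passing, and their part in the values at 24 h was not tested. Among 11 measured genes known to act downstream of Egr1 in the vessel wall, Spp1 (osteopontin) averaged 25039 in 3VO arteries at 24 h against 6927 in sham arteries (log2 difference 1.71, SE 0.36, adjusted p = 0.157). Ccl2, the monocyte chemokine, averaged 5623 in 3VO arteries at 3 d against 841 in sham arteries (2.83, SE 0.60, adjusted p = 0.524). The Ccl2 difference was 3.39 without sham 3 d replicate 1 (adjusted p = 0.260). Egr1 itself did not pass at either time. Its log2 difference was -0.18 (interval -0.75 to 0.40) at 24 h and -0.07 (interval -0.65 to 0.50) at 3 d. Macrophage markers were higher in 12 of 14 genes at 24 h and in 14 of 14 at 3 d, with none passing (4 and 5 at an unadjusted p under 0.05). The part of Egr1 and of macrophages in the Spp1 and Ccl2 values was not tested.

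Against intact, a few genes of the same lists passed. Ier3, an early gene that protects against cell death, rose in operated arteries (log2 difference 0.79, SE 0.14, adjusted p = 0.0345), the single call among 40 other immediate early and early response genes, of which 31 were higher with a median of 0.29. Elk3, a serum response factor partner, rose (0.65, SE 0.12, adjusted p = 0.0391), the single call among 16 upstream kinases and factors, of which 8 were higher and 8 lower. Without sham 3 d replicate 1 neither passed (Ier3 0.79, adjusted p = 0.0513; Elk3 0.64, adjusted p = 0.0609). Spp1 rose in 3VO arteries at 24 h (2.25, SE 0.36, adjusted p = 0.0210), and Ccl2 rose in 3VO arteries at 3 d (3.49, SE 0.60, adjusted p = 0.0321), both over intact.

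Of 13 measured endothelial genes that Klf2 and Klf4 are known to regulate, 11 were higher in operated arteries, against 55.1% of all genes. Their median log2 difference was 0.45, and none passed. Endothelial markers as a list were higher in 14 of 14 genes (median 0.42). The list of regulated genes is not of 1 direction, so the count does not measure Klf2 activity, and the part of endothelial content was not tested. Vcam1, an adhesion molecule that Klf2 is known to hold down, was higher by 0.46 (SE 0.12, adjusted p = 0.105), and Cav1, of endothelial caveolae, by 0.45 (SE 0.15, adjusted p = 0.150). Sp1 (0.32, SE 0.09, adjusted p = 0.110) and Klf15 (0.39, SE 0.16, adjusted p = 0.239) had the smallest p-values among 10 other measured KLF and SP genes. The AP-1, ATF and CREB partners, the other EGR factors with their NAB corepressors, the NR4A partners and the other dual specificity phosphatases had no member that passed in operated over intact.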

How the data were processed

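RNA of posterior cerebral arteries, pooled from 8 rats per array, was hybridised to 15 Affymetrix Rat230A arrays in 5 groups of 3, taken from the labels. The deposited values are linear signal intensities, made by the authors with GCOS and scaled to a target of 500, per the labels; the 2% trimmed mean was 5000 on every array. No detection calls were used, so the background level of dim probe sets is unknown, and the number of arrays limits the precision. Of 15923 probe sets, 57 controls were left out, and those at 100 or more on at least 3 arrays were kept (15737). log2(signal + 16) was fitted with limma 3.58.1 in R 4.3.3, as 5 group means over all 15 arrays with a variance trend. A call was a Benjamini-Hochberg adjusted p under 0.05, two-sided. A gene without its own probe set named is given by its brightest tested probe set. Relations used two-sided permutation tests with 100000 resamples. The fit was tested on simulated data. Alternatives were other pseudocounts and filters, normalizations, covariates and each array left out. The genes, lists and tests were chosen with earlier results of these data known. All 10 genes are named, and other genes by the smallest p-values in their list.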

Additional observations from a re-analysis of the deposited data

How the results depend on the processing

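In operated over intact arteries, 2 of the 10 genes were called. The number was 1 (Jund) with quantile normalization, median centring or the brightest probe set per gene, and 0 without the variance trend, with array weights, with the array number, the neuron, the choroid plexus or the endothelial mean as a covariate, and without both choroid-rich arrays; the last 2 were chosen after seeing the data, and the cause was not tested. Leaving out each array in turn gave 0 to 3 genes in operated over intact, 0 to 3 in sham at 24 h over intact, and 0 to 1 in each of the other groups over intact. Klf2 stayed higher and Jund 1387762_s_at lower in operated arteries under all alternatives run. Of the 45 pairs, 1 was called by Pearson r. The number was 2 under quantile normalization, 0 without both choroid-rich arrays, and 0 to 3 leaving out each array in turn. Over all probe sets, the calls in operated over intact (68) ranged from 0 to 927, those of 3VO over sham at 24 h (8) from 1 to 25 and at 3 d (0) from 0 to 8, those of 3VO at 24 h over intact (29) from 1 to 227, of 3VO at 3 d over intact (35) from 0 to 258, of sham at 24 h over intact (0) to 818, of sham at 3 d over intact (0) to 184, and of the F test (12) from 4 to 107. No paired analysis was possible because the replicate numbers only name the arrays of a group. Dim probe sets of Fos, Jund and Atf3 had the widest errors.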

Other observations

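Over the 15 arrays, and taking the best matching probe set of each other gene, the gene whose log2 signal was most like that of Klf2 was Ndrg1 (Pearson r 0.89, Spearman rho 0.78), followed by Ramp2 (0.88 and 0.75), a partner of the adrenomedullin receptor in vessels. For Klf4 it was Mgp (0.88 and 0.86), an inhibitor of vascular calcification. For Junb it was Klf2 by probe set 1394068_x_at (0.87 and 0.77), while the brightest Klf2 probe set, 1376569_at, had 0.55 and 0.45. For Jund it was Armcx4 (0.86 and 0.84), for Dusp1 Rbx1 (0.88 and 0.89), for Nr4a1 Rap1gds1 (0.87 and 0.71) and for Egr1 Atp2a1 (0.84 and 0.77). These were picked as the highest among all genes, share the arrays and their tissue makeup, and are a description with no test.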
